A study of Homo sapiens with 36 samples.

Results

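The integrin and laminin genes of human PCa cell lines were examined. Members were taken by symbol alone: every gene named ITGA or ITGB with an integrin chain number or letter, and every gene named LAMA, LAMB or LAMC with a chain number. The rule gave 38 of the 27852 genes in the table, of which 18 encode integrin alpha chains, 8 encode integrin beta chains and 12 encode laminin chains. No measured value was used in this rule.

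Integrins are cell surface receptors made of an alpha and a beta chain. They bind matrix proteins outside the cell and link them to actin or, for the pair of alpha6 and beta4 chains, to keratin filaments. Laminins are trimers of an alpha, a beta and a gamma chain and form the sheet of basement membranes. Laminin-332, which holds the LAMA3 and LAMB3 products, anchors epithelia such as that of the prostate through the alpha3-beta1 and alpha6-beta4 integrins, and integrins of the alphav group bind vitronectin, fibronectin and bone matrix proteins.

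RNA was sequenced from 36 libraries of 4 established human PCa lines. C4-2 and its derivative C4-2B stand for osteoblastic cancer (BPCa), and DU145 and 22Rv1 for osteolytic cancer (LPCa). Each line was kept for 5 days as a mono-culture (n = 3), beside MG63 cells, a human osteosarcoma line that resembles osteoblasts (n = 2), as a mono-culture with 50 ng/mL RANKL, the cytokine that drives osteoclast formation (n = 2), or beside RAW264.7 cells, mouse macrophages that can become osteoclasts, with the same RANKL (n = 2). Co-cultured cells sat in joined wells with a filter between them, so the PCa cells shared medium with the other cells. No gene was deleted or added. Each phenotype was represented by 2 lines, C4-2 and C4-2B share an origin, and a difference between lines is not a difference between phenotypes. Nothing in the labels says whether replicates were separate cultures, so p-values measure the spread between these libraries, which may be technical. In bulk RNA, fewer cells with a transcript and less of it per cell cannot be told apart.

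The 12 mono-cultures without RANKL were sequenced deeper, with totals of 23932472 to 36719047 counts, than the other 24 libraries, with 9593426 to 15418211, so depth moved with culture in every comparison against those mono-cultures, and its part in the results was not tested. The unit of level is CPM, the count of a gene for each 1000000 counts in its library, and 3 counts, taken as the detection limit, were worth at most 0.125 CPM in the deeper and 0.313 CPM in the other libraries. This limit covers counting error only. The epithelial keratin KRT8 was at 230.0 CPM or more in every mono-culture. The summed level of 8 prostate epithelium markers, KRT8 among them, was 1065 to 1099 CPM for the mono-cultures of DU145, 1437 to 1487 CPM for 22Rv1, 7267 to 7546 CPM for C4-2 and 8197 to 8672 CPM for C4-2B. It moved with culture, other than in 22Rv1 with RANKL, with or without RAW264.7, and DU145 with MG63, where the ranges overlapped those of the mono-cultures. In C4-2B it was 5236 to 5286 CPM with RANKL and 6158 to 6407 CPM with MG63, in C4-2 6004 to 6132 CPM and 5919.8 to 6012 CPM, in DU145 1785 to 1787 CPM and 894 to 1487 CPM, and in 22Rv1 1453 to 1489 CPM and 1675 to 1719.9 CPM. With RAW264.7 and RANKL it was 4794 to 4985 CPM in C4-2B, 5623 to 5740 CPM in C4-2, 1822 to 1971 CPM in DU145 and 1474 to 1542 CPM in 22Rv1. The part of these markers in the results was not tested. The summed level of 12 markers of osteoblast-like cells was 9.29 and 14.8 CPM in C4-2 with MG63 and 10.8 to 11.6 CPM in its mono-cultures, and the 2 ranges overlapped in the other 3 lines too. The summed level of 10 macrophage and osteoclast markers, among them the member ITGAM, was 11.9 to 92.4 CPM over all libraries and 70.0 to 85.3 CPM in the mono-cultures of DU145, where CD68, a lysosomal protein gene, gave 45.4 to 55.3 CPM. In each line the sum in both co-cultures with RAW264.7 cells was below the higher of the 2 mono-cultures with RANKL. RAW264.7 cells are mouse cells and the counts are of human transcripts, so this sum cannot tell whether their RNA was carried over. Of these markers 1 to 4 were at or under 3 counts in every library of a group, and TYROBP was at 0 counts in all 36 libraries. The 2 libraries of DU145 with MG63 stood apart from each other: 10.5% of genes differed over 2-fold between them, against 0.249% to 0.371% in each of the other 11 pairs. Which of them is typical is not known. Counts of members called against the mono-cultures without RANKL that rest on this pair are given without either one. Counts of partner genes, counts against the RANKL control and values are given without replicate 2, whose removal ended calls.

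**Figure D1:**
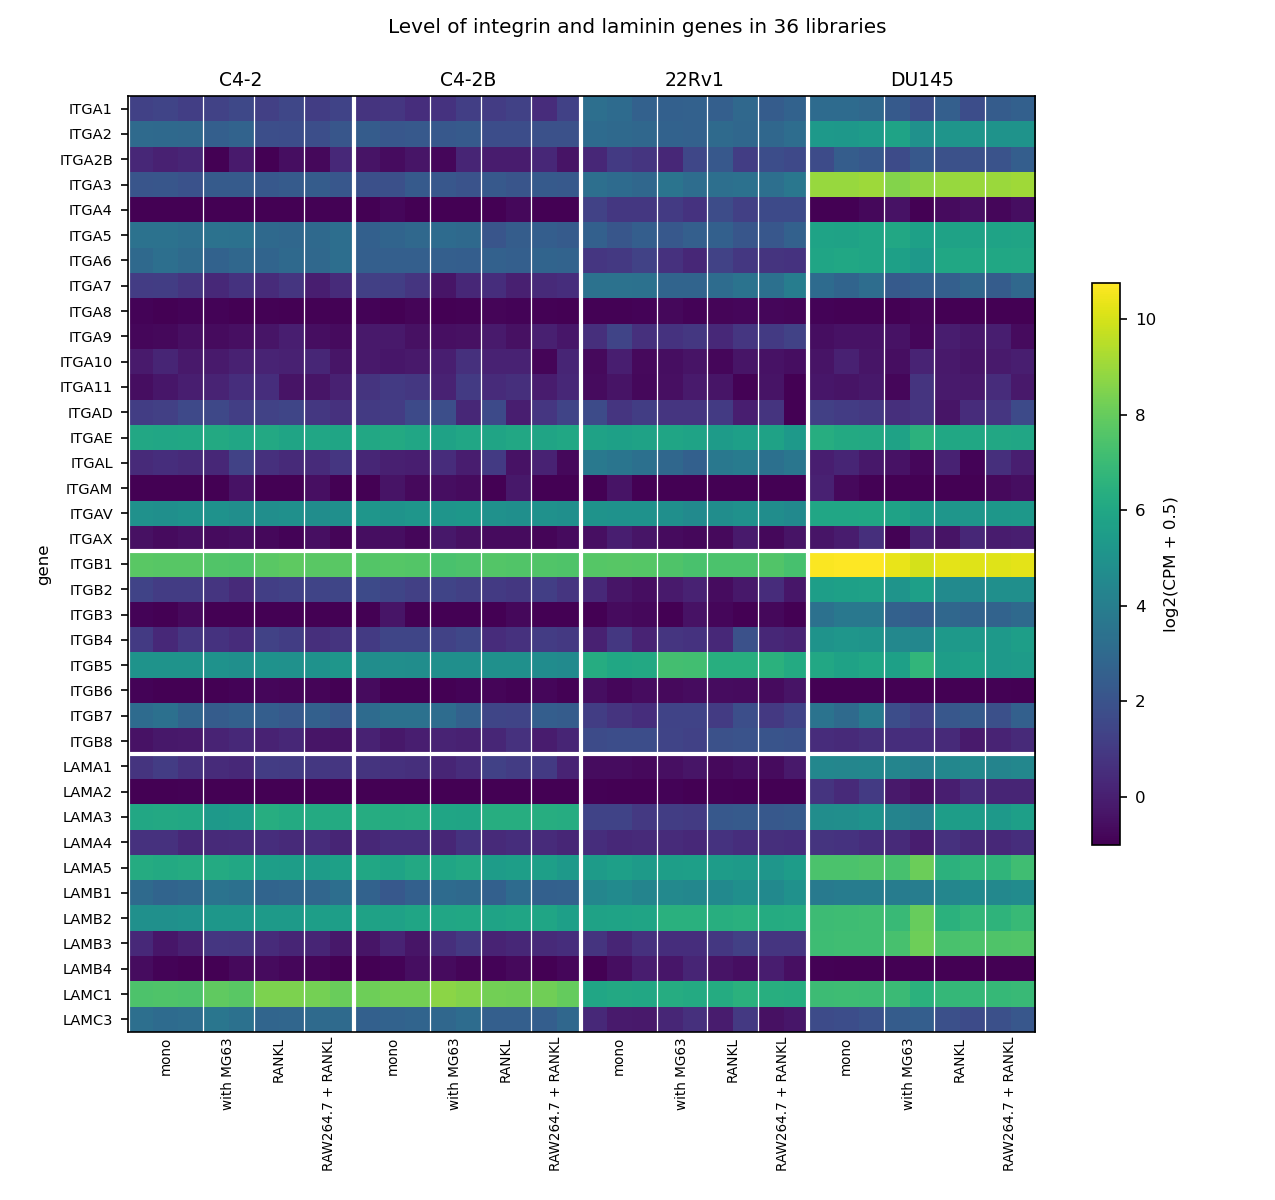
Level of integrin and laminin genes in the 36 libraries, grouped by line and culture, as the log2 of CPM plus 0.5. DU145 is the brightest line for ITGA3, ITGB1 and LAMB3, and LAMA3 is dark in 22Rv1.

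The map of levels over all libraries shows larger differences between lines than between cultures for genes such as LAMB3 and ITGA3. Of the 38 genes, 25 reached 100 counts in at least 1 library without RANKL and were tested there. The other 13 stayed below that limit, among them ITGB6 and ITGB8, and ITGA8 had at most 2.13 counts in any library. A gene was called at a Benjamini-Hochberg adjusted p under 0.05 over all genes tested.

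In mono-culture DU145 held higher levels of most tested integrin and laminin chains than the mean of the other 3 lines. Against the mean of the other 3 lines on the log scale, 23 of the 25 genes were called with edgeR's quasi-likelihood test, 21 higher and 2 lower in DU145, and 18 were called over 2-fold. Among all 13437 genes tested, 82.0% were called in either direction, 41.0% higher and 41.0% lower, and 37.6% were called over 2-fold. The members' median log2 fold change was 1.56, and that of all genes was -0.011. By kind, 8 of 10 alpha chains, 6 of 6 beta chains and 7 of 9 laminin chains were called higher. A gene above that mean need not be above each line. LAMA3 was called higher but lay below C4-2 and C4-2B, with log2 differences of -1.26 and -1.51. LAMB1 and ITGA7 lay below 22Rv1, at -0.57 and -0.39. ITGB5 and ITGA1 did not differ from 22Rv1 past the threshold, nor did ITGB7 from C4-2 or C4-2B. ITGA2B, ITGB2, ITGB3, ITGB4, LAMA1 and LAMB3 were among genes called higher that reached the count limit for testing in DU145 alone. Their direction was largely set by that limit, and they feed the counts called higher, those over 2-fold and the median. ITGAL, called lower, reached it in 22Rv1 alone. The same limit held for all genes, and the counts were not repeated without such genes.

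The chains of laminin-332 did not share 1 order over the lines. LAMB3, the beta chain, was at 137, 143 and 139.8 CPM in DU145, and between 0.290 and 1.21 CPM (median 0.623) in the 9 mono-cultures of the other lines. All DU145 libraries lay above all others, with a log2 fold change of 7.81 ± 0.16 (SE, n = 3 against 9, adjusted p = 1.23e-16) by edgeR's quasi-likelihood test.

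LAMA3, the alpha chain, followed another order. It was highest in the BPCa lines, with 66.4 ± 0.501 CPM (SD, n = 3) for C4-2 and 76.5 ± 2.19 CPM for C4-2B, followed by 28.3 ± 2.35 CPM in DU145 and 1.87 ± 0.375 CPM in 22Rv1. C4-2B and C4-2 did not differ past the threshold (log2 difference 0.25 ± 0.081, adjusted p = 0.0541 by edgeR's quasi-likelihood test). DU145 was 2.40-fold below C4-2, and 22Rv1 was 37.3-fold below it. C4-2 and C4-2B thus carried LAMA3 counts beside LAMB3 means of 0.544 and 0.403 CPM.

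The long form of LAMA3 took more counts than the short form in all 4 lines. Its 10661-base transcript took 53.0% of LAMA3 counts in C4-2, 46.1% in C4-2B, 48.0% in 22Rv1 and 65.1% in DU145 mono-cultures. A 5671-base transcript, which encodes the short form, took at most 1.12% in any line. Another, typed as a processed transcript, took 22.0% to 33.0%. These shares are the authors' estimates, since reads from sequence that transcripts share cannot be placed directly.

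The receptors of laminin-332 were also highest in DU145. ITGA3, the alpha chain of the alpha3-beta1 receptor, was at 489, 495 and 518 CPM in DU145 and between 3.16 and 9.19 CPM (median 3.96) in the other 9 libraries. ITGA6, which pairs with ITGB4 in hemidesmosomes, was at 60.3, 64.1 and 58.7 CPM in DU145, 8.27 ± 0.849 CPM in C4-2, 5.36 ± 0.0942 CPM in C4-2B and 1.57 ± 0.365 CPM in 22Rv1. ITGB4 was at 32.2, 35.5 and 33.5 CPM in DU145 and at most 2.26 CPM elsewhere. In none of the 3 genes did DU145 overlap another line, and the log2 fold changes by edgeR's quasi-likelihood test were 6.68 ± 0.083 for ITGA3, 3.85 ± 0.085 for ITGA6 and 4.71 ± 0.15 for ITGB4, with a largest adjusted p of 2.19e-14.

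ITGB1, the beta chain shared by the collagen, fibronectin and laminin receptors, stood at 1626, 1673 and 1722 CPM in DU145 and between 194 and 212 CPM (median 204) in the other lines, an 8.04-fold difference with no overlap. The other 3 lines did not differ past the threshold: C4-2B against C4-2 was -0.058 ± 0.076 on the log2 scale (adjusted p = 0.727, edgeR's quasi-likelihood test), and 22Rv1 against C4-2 was -0.084 ± 0.076. Levels of different genes are compared per length, over protein-coding transcripts and scaled to a library total of 1000000 (TPM). On that scale the means in DU145 mono-cultures were 616 TPM for ITGB1, 99.2 for ITGA3, 45.4 for LAMB3, 11.5 for ITGA6, 9.91 for ITGB4 and 3.66 for LAMA3. ITGB1 led the members on it in all 4 lines, at 69.6 TPM in C4-2, 64.5 in C4-2B and 70.1 in 22Rv1. This rank depends on the scale: over all transcripts LAMC1 was at 113 to 142 TPM in C4-2B, where ITGB1 was at 66.3 to 69.9 TPM, and ITGAE exceeded ITGB1 in the mean of C4-2, C4-2B and 22Rv1.

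**Figure D2:**
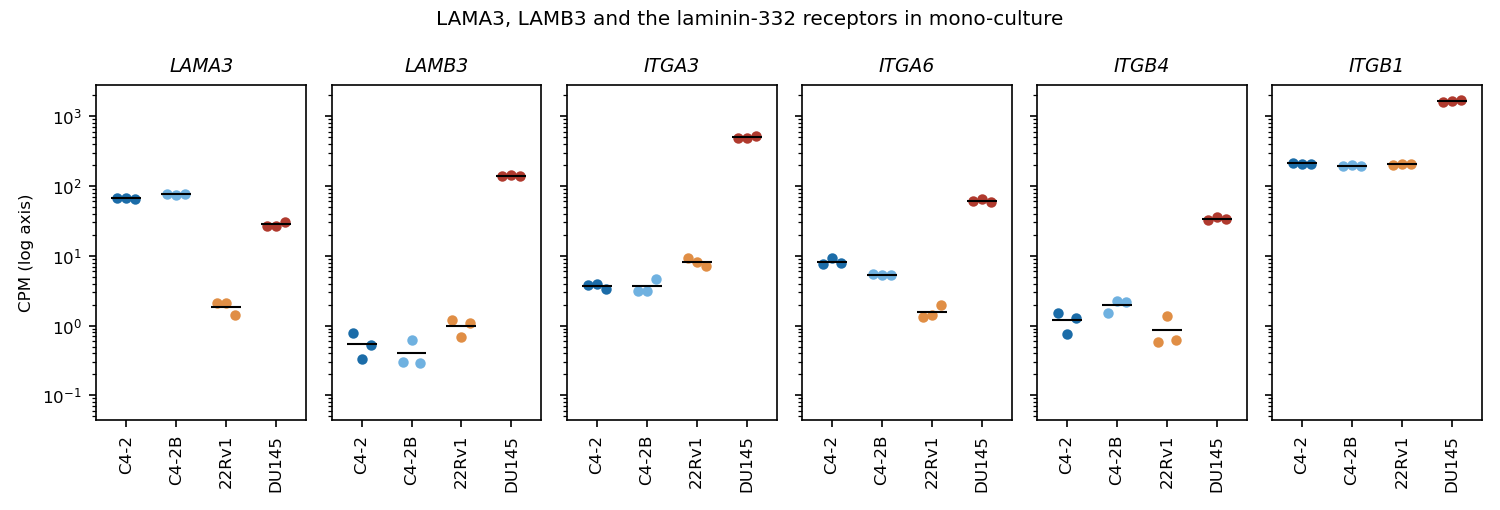
CPM in the 3 mono-cultures of each line (log axis, 1 point per library) for LAMA3, LAMB3 and the laminin-332 receptors. LAMB3 is at 137 to 143 CPM in DU145 and at most 1.21 CPM in the other lines, whereas LAMA3 is highest in C4-2 and C4-2B.

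In the plot of LAMA3, LAMB3 and the receptors, every gene shown but LAMA3 sets DU145 above the other lines, and LAMA3 sets 22Rv1 below them. The collagen receptor chain ITGA2 was at 39.1, 38.6 and 42.6 CPM in DU145 and 3.99 to 8.03 CPM in the others. ITGA5, which binds fibronectin together with ITGB1, was at 55.4, 53.4 and 60.2 CPM and 3.96 to 10.4 CPM. Neither gene overlapped between DU145 and the rest, and the log2 fold changes were 2.64 ± 0.11 and 3.01 ± 0.089. ITGB2, the beta chain of leukocyte integrins, was at 48.2, 50.01 and 53.2 CPM in DU145 and at most 2.62 CPM elsewhere, while ITGAL, an alpha chain that pairs with it, had a mean of 0.504 CPM in DU145.

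The beta chains that pair with alphav were unevenly spread. ITGAV itself was at 62.4 ± 1.04 CPM in DU145 and at 29.9 ± 1.32, 34.5 ± 2.36 and 31.6 ± 0.875 CPM in C4-2, C4-2B and 22Rv1, and DU145 exceeded their mean by 0.93 ± 0.064 on the log2 scale. ITGB3 was at 9.93, 12.3 and 12.4 CPM in DU145 and at most 0.285 CPM in the other lines, some of whose libraries held 0 counts. ITGB5 was highest in the LPCa lines, at 60.5 ± 5.70 CPM in DU145 and 68.9 ± 6.002 CPM in 22Rv1, against 32.4 ± 0.384 CPM for C4-2 and 26.9 ± 0.425 CPM for C4-2B. The 2 LPCa lines did not differ from each other past the threshold, nor did the 2 BPCa lines, with log2 differences of -0.17 ± 0.16 between DU145 and 22Rv1 and 0.22 ± 0.16 between C4-2 and C4-2B. DU145, the lower of the LPCa lines, exceeded C4-2, the higher of the BPCa lines, by 0.87 ± 0.16 (adjusted p = 1.23e-04, edgeR's quasi-likelihood test). ITGB8, which was not tested, had its highest mono-culture mean in 22Rv1, at 2.83 ± 0.121 CPM, and ITGB6 never passed 4.85 counts.

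LAMB3 had the largest log2 fold change of the members in DU145, and its counts divided between start regions, so a pair of these is shown. The sequences are from RefSeq (GRCh38.p14), on the minus strand of chromosome 1, upstream of each start and cut where an annotated exon begins. The deposited tables hold no coordinates and the submitters' processing notes name hg19, so the regions were matched by gene symbol. In DU145, 84.1% of LAMB3 counts were assigned to transcripts starting within 100 bases of an upstream start (region chr1:209652467-209652675) and 15.0% to those at a downstream start (region chr1:209651395-209651624). In the other lines, where few counts were present, the downstream start took 48.9% to 54.2%. Capitals mark a match to the NF-kB motif in the first and to the AP-1 motif, TGANTCA, in the second.
LAMB3 upstream start: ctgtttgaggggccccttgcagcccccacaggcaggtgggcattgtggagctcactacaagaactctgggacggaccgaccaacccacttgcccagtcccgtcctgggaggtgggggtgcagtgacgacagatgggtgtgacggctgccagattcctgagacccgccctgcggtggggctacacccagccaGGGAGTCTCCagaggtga
LAMB3 downstream start: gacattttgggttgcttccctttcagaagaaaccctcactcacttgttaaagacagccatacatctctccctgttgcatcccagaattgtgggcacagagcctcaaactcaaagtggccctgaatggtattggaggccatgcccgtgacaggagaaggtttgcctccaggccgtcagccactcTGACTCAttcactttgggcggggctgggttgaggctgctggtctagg

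Both strands of the 250 bases before each start were searched. Of the 26 members with a region in the table, which had 33 regions together, 2 held an AP-1 match in at least 1 region, LAMA3 and LAMB3, and 5 held an NF-kB match, ITGA1, ITGA5, ITGA10, ITGA11 and LAMB3. Counted the same way over all 27305 genes with a region, 8.06% held the first motif and 6.28% the second. By region, the motifs stood in 2 and 6 regions of members and in 6.57% and 5.21% of all 35116. The LAMA3 region with the match lies at a start that carried 0% of LAMA3 counts. A match describes letters, not binding.

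22Rv1 differed from the BPCa lines in both directions. Against C4-2 and C4-2B in mono-culture, 21 of 25 genes were called by edgeR's quasi-likelihood test, 10 higher and 11 lower in 22Rv1, and 15 were called over 2-fold. Over all genes 75.9% were called, 38.7% higher and 37.2% lower, and 29.1% were called over 2-fold. The members' median log2 fold change was -0.055, and that of all genes 0.015.

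Laminin chains were among the largest of these differences. LAMA3 fell by 5.35 ± 0.11 on the log2 scale and LAMC3, a gamma chain, fell by 3.85 ± 0.19. LAMC1, the gamma chain of most laminins, was at 61.9, 66.9 and 64.7 CPM in 22Rv1, against 179, 185 and 177 CPM for C4-2 and 287, 316 and 316 CPM for C4-2B, with no overlap among these 3 lines. LAMB1, the beta chain of laminin-111, went the other way, at 20.7, 23.8 and 19.5 CPM in 22Rv1 and 4.26 to 7.74 CPM in the 6 BPCa libraries. ITGAL, the alpha chain of a leukocyte integrin, was at 12.9, 11.4 and 9.60 CPM in 22Rv1 and at most 0.931 CPM in the BPCa lines, 15.3-fold higher. ITGA7, a laminin receptor chain of muscle, was 6.16-fold higher, at 10.3 ± 0.174 CPM.

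C4-2B and C4-2 differed in fewer members. By edgeR's quasi-likelihood test, 9 of 25 genes were called, against 13.6% of all genes. LAMC1 was 1.75-fold higher in C4-2B (adjusted p = 1.34e-05). LAMB2, the beta chain of laminins in vessel and muscle membranes, was at 54.4, 52.1 and 59.0 CPM in C4-2B and 29.1, 29.6 and 31.8 CPM in C4-2, with no overlap. ITGA1, ITGA2, ITGA5, ITGA6, LAMB1 and LAMC3 were lower in C4-2B, with log2 fold changes from -0.74 to -0.37. Without C4-2 mono-culture replicate 3, 5 genes were called, against 9.86% of all genes.

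Some members had most of their counts on transcripts that are not typed as protein-coding. Over all libraries the protein-coding share was 0.153% for ITGAE, 12.9% for ITGAL, 37.5% for LAMA5, 38.6% for ITGA1, 42.6% for LAMB2 and 42.6% for ITGB7. It was 99.2% for ITGB1 and 98.1% for ITGAV, and all LAMB3 counts were on coding transcripts. The median over 12775 genes was 88.2%, and 16 of the 38 members were under 50%. In 22Rv1 mono-cultures, where ITGAL was highest, 48.2% of its counts lay on the retained-intron transcript ITGAL-217 and 11.4% on coding ones. With coding transcripts alone, the log2 fold change between DU145 and the other lines was 7.80 for LAMB3, 7.20 for ITGA3 and 3.01 for ITGB1.

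**Figure D3:**
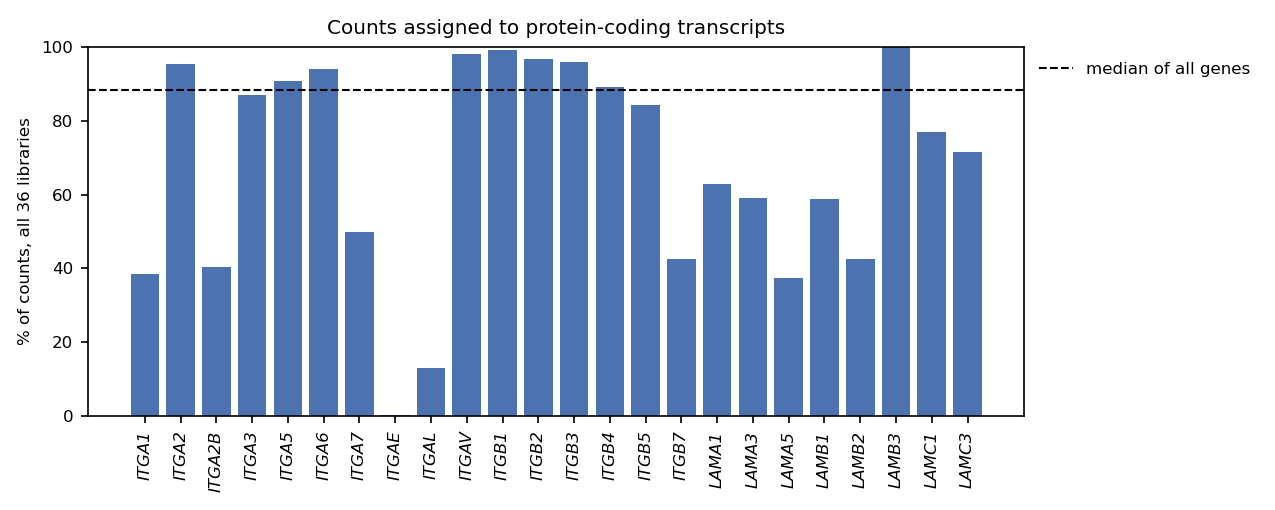
Share of the counts of tested genes, over all 36 libraries, assigned to transcripts typed as protein-coding, with the median of 12775 genes as a dashed line. ITGAE is at 0.153% and ITGAL at 12.9%, and LAMB3 reaches the top of the axis.

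The bars of coding shares separate members such as LAMB3 and ITGB1, whose level is that of coding transcripts, from members such as ITGAE and ITGAL, whose level is not.

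Partner genes, a list of 36 ligands, adaptors and kinases of these receptors, also differed between lines, and 32 were tested. In DU145, 31 were called, against 82.0% of all genes, 22 of them higher, with a median log2 fold change of 1.23. NID1, nidogen, which links laminin to collagen IV, had a mean of 17.0 CPM in DU145, 2.02 CPM in 22Rv1 and 0.0132 CPM over the BPCa libraries. FN1, fibronectin, went the other way, with a mean of 4.49 CPM in DU145, 20.6 CPM in 22Rv1, 542 CPM for C4-2 and 884 CPM for C4-2B, lower in both LPCa lines than in either BPCa line. Between 22Rv1 and the BPCa lines 25 were called, near the 75.9% of all genes, 13 higher and 12 lower, and between C4-2B and C4-2 7 were, against 13.6%, 6 of them higher.

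Co-culture with MG63 cells addressed the response of each line to osteoblast-like cells. In C4-2, 3 of 25 genes were called by edgeR's quasi-likelihood test, against 10.1% of all genes. In C4-2B 3 were called, against 7.41%, and in 22Rv1 3, against 20.4%. In DU145, 12 were called, against 30.5%, 4 of them higher (15.2% of all genes) and 8 lower (15.3%). Against the mono-cultures with RANKL as a second control, 7 members were called in C4-2 (10.3% of all genes), 5 in C4-2B (7.63%), 11 in DU145 (36.5%; without MG63 replicate 2, 10 and 23.0%) and 2 in 22Rv1 (15.3%). The members' median log2 fold change was 0.024 in C4-2, 0.13 in C4-2B, 0.21 in 22Rv1 and -0.21 in DU145, and the medians of all genes lay between -0.062 and 0.00. With library totals in place of TMM scaling, those all-gene medians lay between -0.13 and -0.063, and no called member changed direction.

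**Figure D4:**
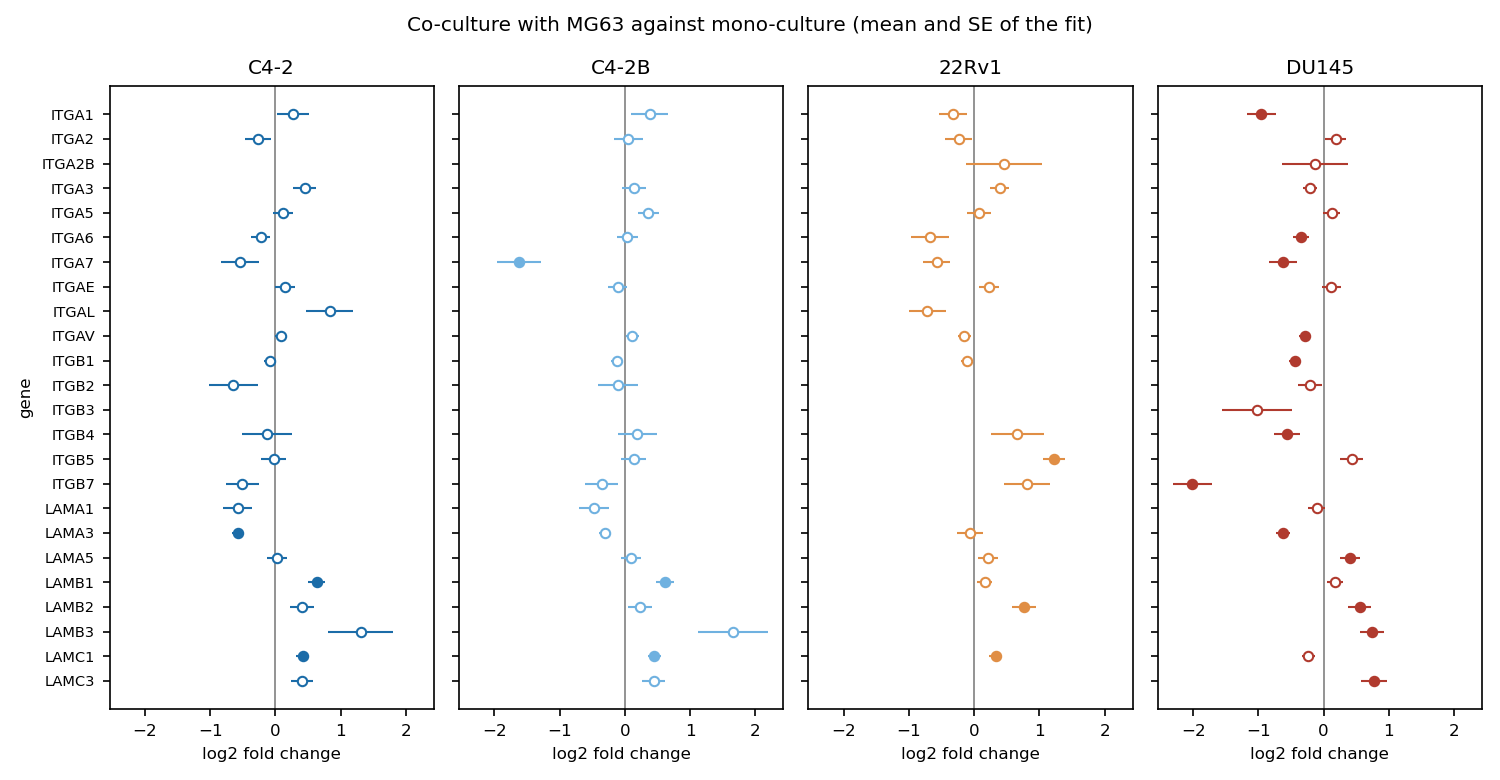
Log2 fold change with MG63 against mono-culture for genes tested in each line, with the standard error of the fit as a bar. Filled points passed an adjusted p of 0.05, and genes under 1 CPM in both cultures of a line are left out; ITGB5 of 22Rv1, at 1.22, and ITGB7 of DU145, at -2.02, lie far from 0.

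In the chart of MG63 effects, the largest called rise was that of ITGB5 in 22Rv1. ITGB5 was at 152 and 146 CPM with MG63 and 75.7, 64.3 and 66.8 CPM in mono-culture. The groups did not overlap, and the log2 fold change was 1.22 ± 0.18 (adjusted p = 1.63e-04, edgeR's quasi-likelihood test), the 1 member over 2-fold in 22Rv1, where 1.99% of all genes were. Against the mono-cultures with RANKL, at 81.9 and 81.8 CPM, the value was 0.94, and with coding transcripts alone it was 1.21. In the other lines it was -0.025 ± 0.19 in C4-2, 0.13 ± 0.19 in C4-2B and 0.43 ± 0.18 in DU145, none past the threshold, and in DU145 it was -0.17 without MG63 replicate 2.

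LAMC1 rose in C4-2, C4-2B and 22Rv1. It was at 232 and 217 CPM in C4-2 with MG63 and 177 to 185 CPM without. It was at 417 and 384 CPM in C4-2B with MG63 and 287 to 316 CPM without, and at 76.8 and 73.0 CPM in 22Rv1 with MG63 and 61.9 to 66.9 CPM without. The groups did not overlap, and the log2 fold changes were 0.42 ± 0.10, 0.45 ± 0.10 and 0.33 ± 0.10. Against the mono-cultures with RANKL, LAMC1 was reversed in C4-2, where those stood at 344 and 341 CPM, with a log2 fold change of -0.59. It was 0.38 in C4-2B and -0.071 in 22Rv1. With coding transcripts alone the values were 0.28, 0.26 and 0.25, none of them called, and the call in 22Rv1 was lost without any 1 of its 5 libraries.

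LAMB1 rose in both BPCa lines. It was at 10.6 and 9.70 CPM in C4-2 with MG63 and 7.74, 6.40 and 7.01 CPM without, and at 8.11 and 7.48 CPM in C4-2B with MG63 and 5.96, 4.26 and 5.66 CPM without. The groups did not overlap, and the log2 fold changes were 0.63 ± 0.13 and 0.62 ± 0.13, or 0.64 and 0.15 against the mono-cultures with RANKL. LAMB2 rose in 22Rv1, to 88.4 and 87.0 CPM from 53.7, 56.5 and 57.0 CPM, by 0.76 ± 0.18. Its mono-cultures with RANKL stood at 82.6 and 87.6 CPM, so that against them the value was 0.12.

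LAMA3 fell in C4-2, at 39.1 and 43.5 CPM with MG63 and 66.3, 66.9 and 65.9 CPM without. The groups did not overlap, and the log2 fold change was -0.57 ± 0.096, or -0.85 against the mono-cultures with RANKL. In C4-2B it was at 60.5 and 58.1 CPM with MG63, a log2 fold change of -0.31 ± 0.094 that was not called (adjusted p = 0.0607, edgeR's quasi-likelihood test). ITGA7 fell over 2-fold in C4-2B (1.22% of all genes were over 2-fold), at 0.287 and 0.723 CPM against 1.83, 1.80 and 1.28 CPM, and it was not called with coding transcripts alone, at -0.68. Without C4-2B with MG63 replicate 1, 0 members of C4-2B were called by edgeR (2.16% of all genes were), with 6 at an unadjusted p under 0.05, and without 22Rv1 with MG63 replicate 2, 1 member of 22Rv1 was (9%).

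The start regions of ITGB5 and LAMC1 are shown because these genes carried the largest rise and the rise seen in most lines. The ITGB5 region, chr3:124887366-124887599 on the minus strand, precedes a start whose transcripts took 63.4% of ITGB5 counts in 22Rv1. The LAMC1 region, chr1:183023170-183023419 on the plus strand, precedes the start of 95.3% of LAMC1 counts there. Both are from RefSeq (GRCh38.p14), and neither holds a match to the AP-1 or NF-kB motif, so no letter is in capitals.
ITGB5: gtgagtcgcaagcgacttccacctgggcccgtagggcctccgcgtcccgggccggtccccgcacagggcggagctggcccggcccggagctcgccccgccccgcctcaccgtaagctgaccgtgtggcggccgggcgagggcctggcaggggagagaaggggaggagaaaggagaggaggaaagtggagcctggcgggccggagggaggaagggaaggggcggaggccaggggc
LAMC1: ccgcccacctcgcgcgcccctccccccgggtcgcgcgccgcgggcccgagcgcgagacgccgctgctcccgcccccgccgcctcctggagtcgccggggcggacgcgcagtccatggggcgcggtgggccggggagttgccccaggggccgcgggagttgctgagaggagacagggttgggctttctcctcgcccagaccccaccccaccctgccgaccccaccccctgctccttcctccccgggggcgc

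In DU145 the calls with MG63 depended on which library was kept. LAMB3 was at 160.3 and 285 CPM with MG63 and 137, 143 and 139.8 CPM without. LAMB2 was at 124 and 259 against 133, 137 and 139 CPM, and LAMA5, the alpha chain of laminin-511, at 160.4 and 279.8 against 169.6, 172 and 181 CPM. Replicate 2 was the high one for all 3 genes, and for LAMB2 and LAMA5 replicate 1 lay below all mono-cultures. With both libraries the log2 fold changes were 0.74 ± 0.18, 0.55 ± 0.18 and 0.40 ± 0.15, and without replicate 2 they were 0.27, -0.058 and -0.043, none of them called. Without replicate 1 they were 1.09, 0.98 and 0.75, all called. With coding transcripts alone LAMB2 was at -0.16. Without replicate 1, 15 of 25 members were called, against 54.9% of all genes. Without replicate 2, 5 of 25 members were called, against 14.9% of all genes, and without DU145 mono-culture replicates 1, 2 or 3, the counts were 6, 7 and 6, against 25.3%, 23.7% and 23.8%. A group left with 1 library was assumed to vary like the others.

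The calls of ITGB7, LAMA3 and ITGB1 in DU145 held without any single 1 of the 5 libraries compared, and all 3 genes fell. ITGB7, the beta chain of lymphocyte homing receptors, was at 2.97 and 1.91 CPM with MG63 and 10.6, 7.73 and 13.2 CPM without, a log2 fold change of -2.02 ± 0.30, and was the 1 member called over 2-fold (3.70% of all genes were). LAMA3 was at 19.1 and 15.7 CPM against 26.7, 27.1 and 31.0 CPM, and ITGB1 at 1331 and 1016 CPM against 1626, 1673 and 1722 CPM. No group overlapped, and the log2 fold changes of LAMA3 and ITGB1 were -0.62 ± 0.11 and -0.44 ± 0.086. Without replicate 2 the log2 fold changes were -1.76 for ITGB7, -0.49 for LAMA3 and -0.25 for ITGB1. Against the mono-cultures with RANKL, LAMA3 and ITGB1 were at -1.37 and -0.013, that of ITGB7 was -0.78, and ITGAV, at -0.28 ± 0.095 before, was reversed to 0.45. Without replicate 2, ITGAV was at -0.11 and not called, and the values against RANKL were -1.27 for LAMA3, 0.15 for ITGB1, -0.55 for ITGB7 and 0.60 for ITGAV.

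The difference between the MG63 responses of BPCa and LPCa lines was tested directly. By edgeR's quasi-likelihood test 6 of 25 members were called, against 9.85% of all genes. LAMC1, LAMB1, ITGAV, ITGA1 and ITGAL had a higher mean response in the BPCa lines and ITGB5 a lower one. LAMC1 had log2 fold changes of 0.42 in C4-2, 0.45 in C4-2B, 0.33 in 22Rv1 and -0.23 in DU145, so 22Rv1 lay near the BPCa lines and DU145 apart. In DU145 it was at 126 and 90.2 CPM with MG63 and 131 to 137 CPM without, and its log2 fold change without MG63 replicate 2 was -0.0080. LAMB1 had log2 fold changes of 0.63 and 0.62 in C4-2 and C4-2B and 0.17 and 0.16 in DU145 and 22Rv1, a difference of 0.46 ± 0.12 (adjusted p = 0.0299, edgeR's quasi-likelihood test). ITGB5 was called with MG63 in 22Rv1 alone of the 4 lines, at 1.22, against 0.43 in DU145, -0.025 in C4-2 and 0.13 in C4-2B. The difference was -0.77 ± 0.18, and -0.47 without DU145 with MG63 replicate 2. With the mono-cultures with RANKL as the control, LAMB1 and ITGB5 kept their calls, at 0.73 and -0.89, and LAMC1, ITGAV and ITGA1 were at -0.039, -0.043 and -0.013. Coding ITGA1 was at a mean of 0.0497 CPM in the C4-2B mono-cultures, under the detection limit, so its response cannot be read from coding transcripts alone. ITGAL was the 1 member over 2-fold, at 1.67 ± 0.46 (1.38% of all genes were), and it did not pass the threshold with MG63 in any single line. It was at 7.06 and 5.63 CPM in 22Rv1 with MG63 and 12.9, 11.4 and 9.60 CPM without. In the lines where it was low, it was at 0.744 and 2.01 CPM with MG63 in C4-2, 0.895 and 0.449 CPM in C4-2B and 0.251 and 0.0694 CPM in DU145, the last of these from under 1 count and below the detection limit. Without DU145 with MG63 replicate 2, 6 members were called, against 12.6% of all genes, with differences of 0.28 for LAMC1, 0.47 for LAMB1, 0.23 for ITGAV and 0.85 for ITGA1, and ITGAL, at 1.45, lost its call. With RANKL controls as well, LAMB1 and ITGB5 were at 0.76 and -0.57. Without DU145 with MG63 replicate 1, 13 members were called, where 43.7% of all genes were. Without C4-2 with MG63 replicate 1, C4-2B with MG63 replicate 1 or 22Rv1 with MG63 replicate 2, the counts were 3, 2 and 2, against 5.50%, 6.68% and 5.93% of all genes.

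**Figure D5:**
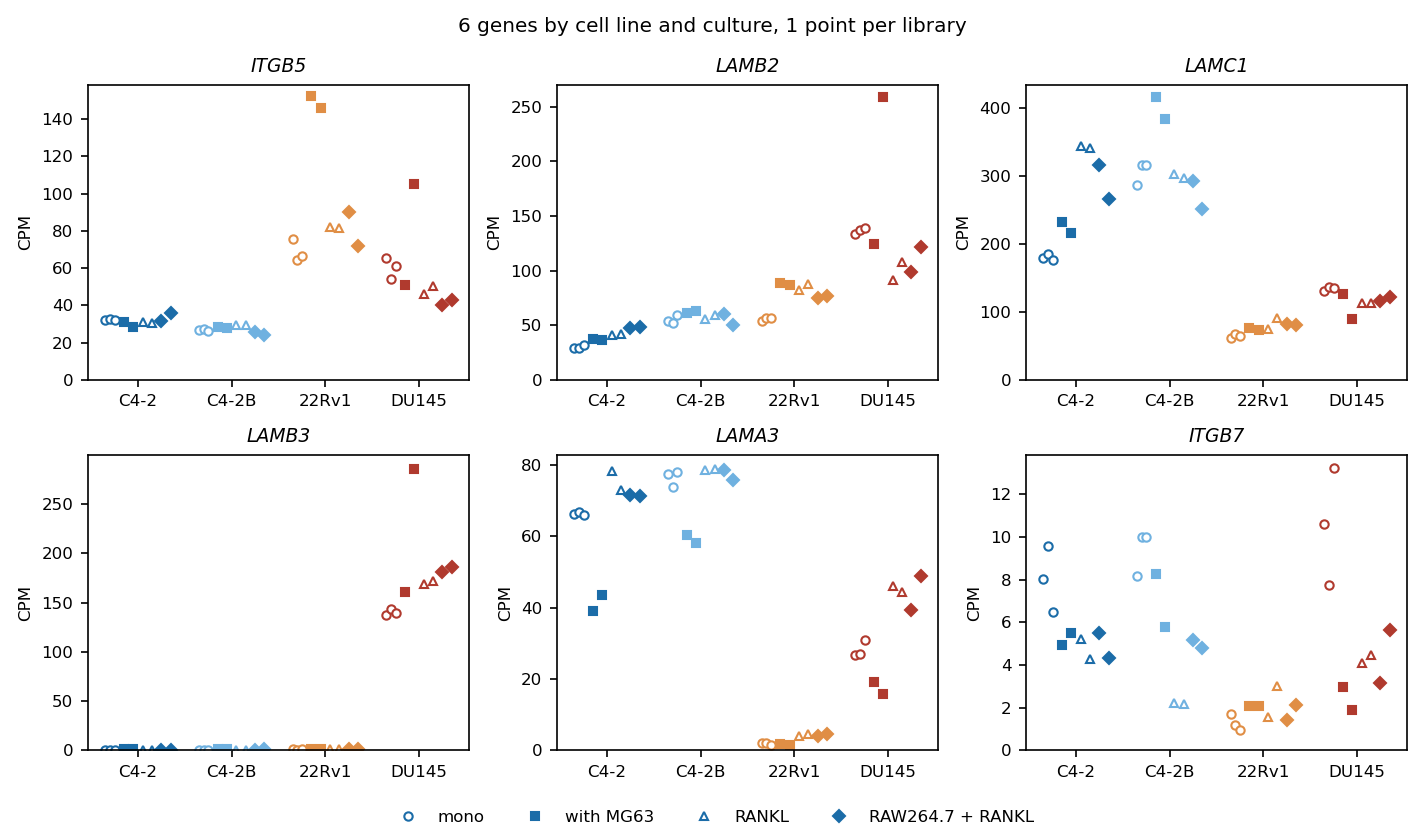
CPM of 6 genes in every library (1 point each), by line and culture (circles, mono-culture; squares, with MG63; triangles, with RANKL; diamonds, with RAW264.7 and RANKL). ITGB5 of 22Rv1 is highest with MG63, LAMA3 of C4-2 is lowest with MG63, and ITGB7 of C4-2B is higher in the mono-cultures without RANKL than with it.

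The points by line and culture also place the co-cultures with RAW264.7 cells beside their own control, the mono-cultures with RANKL. Of the 22 members tested over the 16 libraries with RANKL, 0 were called in each line by edgeR's quasi-likelihood test and 0 by DESeq2. Of all genes, 0.0174% were called in C4-2, 0.139% in C4-2B, 0.0260% in DU145 and 0.00868% in 22Rv1. At an unadjusted p under 0.05 the members' counts were 1, 1, 2 and 2, where 6.61%, 6.40%, 6.39% and 6.26% of all genes passed. For members with a mean of at least 10 CPM, the log2 fold changes lay between -0.23 and 0.21 in C4-2, -0.23 and 0.00 in C4-2B, -0.23 and 0.31 in DU145 and -0.29 and 0.41 in 22Rv1. ITGB7, which did not reach 100 counts in any library with RANKL and was not tested, was at 5.16 and 4.81 CPM in C4-2B with RAW264.7 and 2.24 and 2.16 CPM without, and the pairs did not overlap. LAMC1 in C4-2 was at 317 and 267 CPM with RAW264.7 and 344 and 341 CPM without, a log2 fold change of -0.23 ± 0.081 with an adjusted p of 0.584 (edgeR's quasi-likelihood test). Without 22Rv1 with RANKL replicate 1, 1 member was called in 22Rv1, against 0.0347% of all genes.

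RANKL in mono-culture was compared with the same mono-cultures that were the controls for MG63, so these comparisons share libraries. By edgeR's quasi-likelihood test, 5 of 25 members were called in C4-2, against 18.3% of all genes, and 2 in C4-2B, against 14.4%. In DU145 9 were called, against 32.5%, and in 22Rv1 5, against 17.7%. The members' medians were 0.062, 0.051, -0.14 and 0.25 in that order, and those of all genes lay between -0.023 and -0.011. Calls over 2-fold made up 2.27%, 2.13%, 5.21% and 2.18% of all genes.

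LAMA3 and LAMC1 were among the genes that rose with RANKL. In DU145, LAMA3 rose to 46.1 and 44.4 CPM from 26.7, 27.1 and 31.0 CPM, by 0.78 ± 0.083 on the log2 scale (adjusted p = 8.77e-08, edgeR's quasi-likelihood test). LAMB3 was at 168 and 172 CPM and was not called, with a log2 fold change of 0.38 ± 0.15. The RANKL libraries lay above all mono-cultures for both genes.

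In 22Rv1, LAMA3 rose over 2-fold, to 4.17 and 4.49 CPM from 2.08, 2.09 and 1.43 CPM, by 1.26 ± 0.16. In C4-2, LAMC1 rose over 2-fold, to 344 and 341 CPM from 179, 185 and 177 CPM, by 1.01 ± 0.090. Neither overlapped between cultures. ITGB4 in 22Rv1 was called over 2-fold at 0.767 and 3.23 CPM, its replicates lay far apart, and without replicate 2 its log2 fold change was -0.033. Without that library 1 member was called in 22Rv1, against 8.62% of all genes. In C4-2 the count was 2 without RANKL replicate 1 (9.49% of all genes) and 3 without RANKL replicate 2 (9.89%) or mono-culture replicate 1 (14.7%). In C4-2B it was 1 without RANKL replicate 2 (5.77%) and 4 without mono-culture replicate 1 (11.0%).

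Integrin chains were among the genes that fell with RANKL. ITGB7 in C4-2B was at 2.24 and 2.16 CPM with RANKL and 8.20, 10.0 and 9.99 CPM without, and fell by 2.00 ± 0.30 on the log2 scale. The 2 libraries of C4-2B with RAW264.7 and the same RANKL, at 5.16 and 4.81 CPM, lay between them. In DU145 it fell by 1.197 ± 0.26. ITGA2 in C4-2 was at 2.98 and 2.94 CPM against 7.76, 7.69 and 7.30 CPM, and fell by 1.26 ± 0.20. The groups did not overlap in any of the 3. ITGAV in DU145 was at 35.5 and 36.1 CPM against 61.7, 61.9 and 63.6 CPM, a log2 fold change of -0.70 ± 0.080, and ITGB1 there was at 1215 and 1165 CPM, -0.39 ± 0.068.

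With MG63, 32 partner genes were tested. In C4-2 3 rose, where 10.1% of all genes were called, and in C4-2B 2, where 7.41% were, both near the share of all genes. In 22Rv1 7 were called, against 20.4%, 6 of them higher. In DU145 12 were called, against 30.5%, 7 of them higher, and without MG63 replicate 2 7 were, against 14.9%. FN1, a ligand of several of these integrins, rose from a mean of 542 to 1356 CPM in C4-2, from 884 to 1546 CPM in C4-2B, from 20.6 to 44.5 CPM in 22Rv1 and from 4.49 to 6.15 CPM in DU145, where the call was lost without MG63 replicate 2. With RANKL alone its mean was 821 CPM for C4-2, 1086 CPM for C4-2B, 37.7 CPM for 22Rv1 and 8.78 CPM for DU145, and it was called higher in all 4. In DU145 its mean with RANKL was above that with MG63. THBS1, thrombospondin 1, rose with MG63 from 97.1 to 169.6 CPM in C4-2, from 158 to 221 CPM in C4-2B and from 31.9 to 37.1 CPM in 22Rv1. In DU145 it fell from 28.8 to 18.6 CPM, a call lost without MG63 replicate 2. With RANKL alone THBS1 also rose, to 151 CPM in C4-2, 186 CPM in C4-2B and 38.9 CPM in 22Rv1. For the difference in MG63 response between BPCa and LPCa lines 5 partner genes were called, against 9.85% of all genes, 4 of them higher in BPCa lines, and without DU145 with MG63 replicate 2 7 were, against 12.6%. With RANKL, of 33 tested, 7, 3, 11 and 6 were called in C4-2, C4-2B, DU145 and 22Rv1, against 18.3%, 14.4%, 32.5% and 17.7% of all genes. With RAW264.7 cells 0 of 30 were called in each line by edgeR's quasi-likelihood test, with 0, 4, 2 and 0 at an unadjusted p under 0.05 and 0, 0, 0 and 0 called by DESeq2.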

How the data were processed

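Poly(A) RNA of 36 libraries was sequenced with strand-specific libraries. The authors quantified transcripts with kallisto and deposited estimated counts per transcript. The submitters' processing notes also name FastQC and hg19, and the tables hold no coordinates. Estimated counts of 159837 transcripts, each taken once (2491 repeated lines, 0 with other values), were summed per symbol and rounded. The 6878 transcripts without a symbol held 0.526% to 0.764% of the counts per library, and 0 value columns were left unused. Totals of 9593426 to 36719047 counts set the precision. Genes reaching 100 counts in at least 1 library were fitted with 1 mean per line and culture (edgeR 4.0.16, quasi-likelihood test, TMM, R 4.3.3) over the 20 libraries without RANKL, the 16 with it, or all 36 for RANKL against none, and p-values were adjusted by the Benjamini-Hochberg method over all genes. Alternatives were DESeq2 1.42.0, other scalings and filters, all libraries in 1 fit, a replicate block, RANKL mono-cultures as control, each library left out and, chosen after seeing the data, protein-coding transcripts only and the RANKL control without DU145 with MG63 replicate 2. The fits were tested on simulated data. Transcript lengths and types are from GENCODE 29, and promoters from RefSeq GRCh38.p14. By rule the text named the laminin-332 chains and their receptors, the alphav group, ITGA2, ITGA5, the 5 largest changes called over 2-fold between lines, every member called over 2-fold between cultures, the members past the interaction test, and up to 3 partner genes per comparison. The values of 1 member and 1 marker are not reported here. Other genes were named after their values were seen. The members and lists were chosen with earlier results of these data known.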

Additional observations from a re-analysis of the deposited data

Results flagged for a closer look

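In 6 members the response to MG63 differed between the BPCa and the LPCa lines, by a test of the difference itself (edgeR's quasi-likelihood test, Benjamini-Hochberg adjusted over all genes), where 9.85% of all genes passed. Its error is the spread between libraries, and each phenotype was 2 lines. Neither this test nor leaving out libraries therefore tests a difference between phenotypes. The differences, BPCa minus LPCa on the log2 scale, were 0.97 for ITGA1, 1.67 for ITGAL, 0.32 for ITGAV, -0.77 for ITGB5, 0.46 for LAMB1 and 0.39 for LAMC1. When each of the 20 libraries was left out in turn, ITGB5 was called in all 20 fits, ITGA1 in 18, LAMC1 in 17, LAMB1 in 14, ITGAL in 10 and ITGAV in 4. ITGAL lost its call without DU145 with MG63 replicate 2. With the mono-cultures with RANKL as the control, LAMC1, ITGAV and ITGA1 were at -0.039, -0.043 and -0.013. The log2 fold change of LAMC1 was 0.42 in C4-2, 0.45 in C4-2B, 0.33 in 22Rv1 and -0.23 in DU145, or -0.0080 in DU145 without its MG63 replicate 2. That of ITGB5 was 1.22 in 22Rv1, -0.025 in C4-2, 0.13 in C4-2B and 0.43 in DU145, or -0.17 in DU145 without its MG63 replicate 2.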

How the results depend on the processing

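Of 1657 combinations of a called member and an alternative setting, 1462 kept direction and call, 184 lost the call and 11 reversed. Depth limits the members under 1 CPM, and RANKL mono-cultures are as shallow as the co-cultures. Reversed values against the RANKL control were -0.59 (LAMC1, C4-2 with MG63), 0.45 (ITGAV, DU145 with MG63), -0.071 (LAMC1, 22Rv1 with MG63) and, for the BPCa and LPCa difference, -0.013 (ITGA1), -0.043 (ITGAV) and -0.039 (LAMC1). With protein-coding transcripts they were -0.16 (LAMB2, DU145 with MG63) and -1.32 (ITGA1, BPCa and LPCa difference), where coding ITGA1 was below the detection limit in C4-2B, so that no direction can be read. With 1 library left out, the range was -0.043 to 0.75 for LAMA5 and -0.058 to 0.98 for LAMB2 in DU145 with MG63, reversed without its replicate 2, and -0.033 to 1.99 for ITGB4 in 22Rv1 with RANKL, reversed without RANKL replicate 2. The causes were not tested. Counts of called members moved over 1.5 times as follows. For most of these settings the share of all genes called is not given here, so a moved count does not set the members apart from other genes. Against the RANKL control it was 10.3% in C4-2 and 7.63% in C4-2B with MG63. With calls taken over 2-fold at an unadjusted p, they were 2 for C4-2B against C4-2, 1, 2 and 1 for MG63 in C4-2, DU145 and 22Rv1, 2 for the BPCa and LPCa difference, 2 for RAW264.7 in 22Rv1, and 3, 2 and 3 for RANKL in C4-2, DU145 and 22Rv1. For MG63 in C4-2, C4-2B and 22Rv1, DESeq2 gave 5, 6 and 5, the RANKL control gave 7 in C4-2 and 5 in C4-2B, and all 36 libraries in 1 fit gave 5 in C4-2B. Protein-coding transcripts gave 1 in C4-2B and 5 in 22Rv1 with MG63 and 3 for the BPCa and LPCa difference. No count filter gave 7 for MG63 in DU145, 2 for the difference, and 3 and 1 for RANKL in C4-2 and C4-2B, and library totals gave 5 for MG63 in 22Rv1 and 4 for RANKL in C4-2B. With 1 library left out, counts ranged from 23 to 23 for DU145 against the other lines, 19 to 22 for 22Rv1 against the BPCa lines and 5 to 8 for C4-2B against C4-2. With MG63 they ranged from 2 to 3 in C4-2, 0 to 3 in C4-2B, 5 to 15 in DU145 and 1 to 3 in 22Rv1, and for the difference from 2 to 13. With RAW264.7 they were 0 to 1 in 22Rv1 and 0 to 0 in the other lines, and with RANKL 2 to 5 in C4-2, 1 to 4 in C4-2B, 8 to 9 in DU145 and 1 to 6 in 22Rv1.

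The replicate numbers did not pair the samples: the mean correlation of same-numbered deviations was -0.03 in the libraries without RANKL. A replicate block gave 23, 22 and 8 calls between lines, 3, 3, 9 and 2 with MG63 in C4-2, C4-2B, DU145 and 22Rv1, 6 for the difference, 0 with RAW264.7 and 5, 3, 9 and 5 with RANKL. The shares of all genes called with the block are not given here, so these counts do not compare the members with other genes.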
